A study of Mus musculus with 24 samples.

Results

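The passage of acetaminophen-injured liver from 3 h to 12 h was followed in mice whose hepatocytes, and no other cells by the series text, lack Egfr (KO). Egfr encodes the epidermal growth factor receptor. The libraries were chosen by their labels alone, 3 labelled KO at 12 h against 3 labelled KO at 3 h, and these 6 are of 24 libraries in all. Each library is the bulk polyA RNA of 1 mouse liver, sequenced on an AVITI instrument. All 6 mice carried the deletion and had received acetaminophen at 500 mg/kg. The mice at 12 h and at 3 h are different animals, and the labels give no KO mouse without the drug at these times. The drug, time of day and handling therefore cannot be told apart in this step. Wild-type (WT) mice given the same dose, 3 at 12 h and 3 at 3 h, serve as the comparison, and KO mice at 0 h and 1 h (3 each) show where a level started. Whether the 0 h mice had the drug is not stated. The driver of the deletion, and the strain, sex and age of the mice, were not given in the sources used here. Cells other than hepatocytes keep Egfr in this model. The 6 h and 24 h times of the series text were not analysed here.

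Acetaminophen at overdose is turned by cytochrome P450 enzymes, chiefly Cyp2e1, into a reactive quinone imine. It uses up glutathione and binds proteins, most of all in the pericentral hepatocytes around the central vein, where these enzymes are concentrated. Mitochondrial damage and sustained JNK signalling follow, then necrosis of the pericentral zone. Stress transcription factors, cytokines and repair signals are then switched on in the surviving liver. EGFR on hepatocytes is a receptor for growth factors such as EGF, TGF alpha, amphiregulin and HB-EGF, and it signals through ERK.

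The step changed 1703 of 13204 tested genes, which is 12.9% of them (edgeR quasi-likelihood test, Benjamini-Hochberg adjusted p under 0.05). Of these, 1035 were higher at 12 h (7.84% of tested genes) and 668 were lower (5.06%). A change of at least 2-fold was seen in 564 of the higher and 168 of the lower genes. At least 4-fold were 195 of the higher and 25 of the lower genes. The median log2 fold change of all tested genes was 0.00555, and below a list is called by its counts beside these shares. Levels are CPM, counts scaled to TMM-corrected library totals. Changes are on the log2 scale, 12 h over 3 h, and SE is their standard error.

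The depth and makeup of the libraries moved with time. KO 12 h libraries held 3.54 to 4.21 M counts on genes, of which ribosomal RNA of the mitochondrion took 44.8% to 50.4%. KO 3 h libraries held 4.43 to 6.60 M, with 40.7% to 42.0% of that RNA. With library size alone in place of TMM, the median of all genes lay at -0.24, a shift of -0.25, and 22.6% of 2783 calls were higher, against 60.8% of calls with TMM. Changes below are therefore relative to the middle of all genes. On the first principal component of the 6 libraries (47.4% of the variance) the KO 12 h libraries lay at 39.5, 22.3 and 39.0 and the KO 3 h libraries at -30.7, -37.5 and -32.7. On the second (20.3%), KO 12 h replicate 3 stood apart at 41.8, against -28.6 and -17.8 for the other KO 12 h libraries. Without it the step called 1402 genes, with 16 immediate early genes higher (20 with it), 10 ERK targets higher (10 with it), 6 pericentral genes lower (7 with it), and 4 hepatocyte transcription factors lower and none higher (6 and 2 with it). Genes written below as higher, lower, risen or fallen passed the edgeR test, and kept it without any 1 of the 6 libraries unless a loss is given. By the naming rule, the 12 leading genes in each direction, those with the largest called changes, were admitted only without overlap of the KO libraries. Lack of overlap is therefore no further support for them. In the WT group at 3 h, replicates 2 and 3 stood apart from replicate 1 by their acute phase genes (mean log2 level 8.62 and 8.75, against 6.36).

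**Figure D1:**
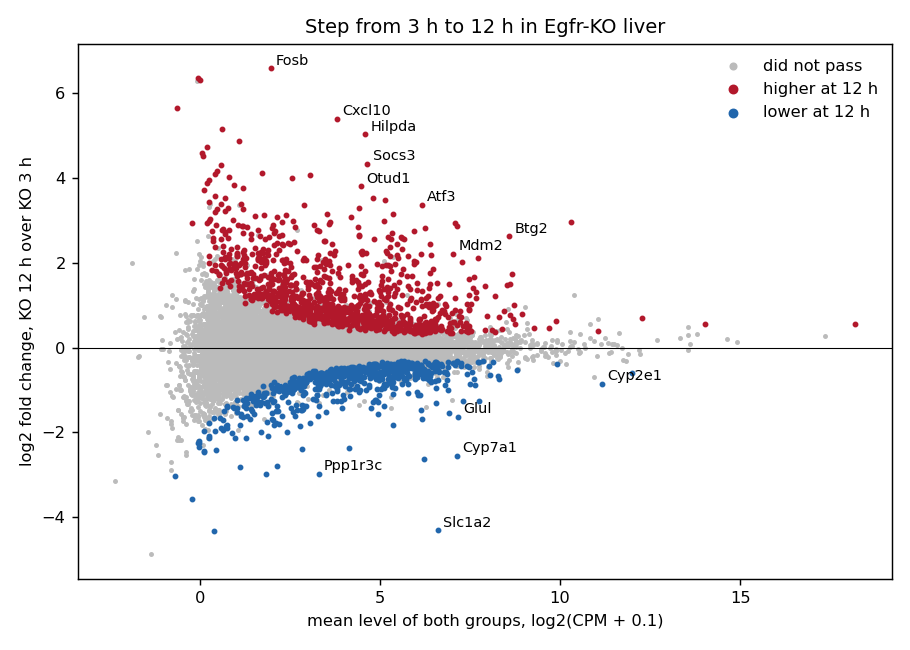
Each point is 1 of 13204 tested genes, with its mean level in log2(CPM + 0.1) over the 6 KO libraries on the x axis and its log2 fold change, KO 12 h over KO 3 h, on the y axis; coloured points passed the edgeR test and labelled genes are described in the text. More calls lie above 0 (1035) than below it (668), and the highest labelled points belong to Fosb, Cxcl10, Hilpda and Socs3 and the lowest to Slc1a2.

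The tissue was liver by its markers. The 8 hepatocyte markers, among them Alb and Apoa1, summed to 47915 to 52819 CPM at 12 h and to 47918 to 48605 CPM at 3 h. Markers of other liver cells were far lower and several lists were higher at 12 h. Kupffer cell markers summed to 93.8 to 132 CPM at 12 h and 71.0 to 92.3 CPM at 3 h, with 2 of 12 called higher. C1qb, a chain of complement C1q made by macrophages, was 4.69, 6.14 and 10.8 CPM in KO 12 h livers, against 3.09, 2.18 and 2.18 CPM in KO 3 h livers (1.48, adjusted p = 0.00224). C1qc was called too, but not without KO 3 h replicate 3 (adjusted p = 0.103), KO 12 h replicate 2 (0.0513) or KO 12 h replicate 3 (0.0995). Sinusoidal endothelial markers summed to 215 to 285 CPM at 12 h and 184 to 208 CPM at 3 h, with 2 of 11 higher, Pecam1 (0.69) and Fcgr2b (0.70). Both lost the call with library size alone (adjusted p = 0.11 and 0.0544). Red blood cell markers summed to 86.0 to 125 CPM at 12 h, against 42.2 to 59.3 CPM at 3 h, without overlap, and none of 5 was called in the main fit. Hbb-bs was called with DESeq2 (1.25, adjusted p = 0.0413). With only the compared groups in the edgeR fit, Hbb-bs (1.24, adjusted p = 0.000326) and Hba-a1 (0.87, 0.0334) were called. Stellate cell markers summed to 248 to 302 CPM at 12 h and 200 to 232 CPM at 3 h (1 of 11 called), and cholangiocyte markers to 42.5 to 137 CPM and 22.9 to 39.7 CPM (1 of 4 tested, Sox9). Neutrophil markers summed to 3.93 to 4.98 CPM at 12 h and 0.654 to 2.06 CPM at 3 h, without overlap and too low for any of 9 to be tested. Without KO 12 h replicate 1 or 3, 1 of them was tested and called higher. Only 2 of 9 monocyte markers, Lyz2 and Fn1, were high enough to test, and the marker sums overlapped between the times (766 to 922 and 755 to 942 CPM). Ly6c2, a defining marker, had no count in any of the 6 libraries, so these sums do not measure monocyte content. T and NK cell markers did not exceed 3.14 CPM and B cell markers 5.94 CPM in any of the 6 libraries. In bulk tissue, fewer cells of a type and less RNA per cell cannot be told apart.

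Egfr itself remained measurable in KO livers. It had 65.9, 117 and 43.0 CPM in KO 12 h livers and 82.3, 184 and 271 CPM in KO 3 h livers, against 263, 205 and 203 CPM in WT 12 h livers and 303, 633 and 455 CPM in WT 3 h livers. No KO library reached the lowest WT library of its time. The difference in log2(CPM + 1), KO minus WT and averaged over the times, was -1.56 (two-sided exact permutation test of genotype within time, p = 0.005, the smallest that 400 arrangements allow). The edgeR contrast of KO minus WT did not pass over all genes, at -1.46 averaged over the times (adjusted p = 0.0798), -1.55 at 12 h (0.243) and -1.37 at 3 h (0.216). Within KO, the step of Egfr was -1.23 (SE 0.452, adjusted p = 0.088) and did not pass with edgeR, whereas DESeq2 gave -1.25 (adjusted p = 0.0392).

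Immediate early genes, which stress and growth signals switch on without new protein synthesis, had the highest share of calls among the 43 gene lists. Of 23 tested, 20 were higher at 12 h and none was lower, with a median log2 fold change of 1.87. Atf3, a transcriptional repressor of stressed cells, had 156, 104 and 132 CPM in KO 12 h livers, against 14.3, 12.2 and 11.2 CPM in KO 3 h livers. All 3 levels at 12 h lay far above all 3 at 3 h (3.37, SE 0.284, adjusted p = 1.15e-07). Maff, a small Maf partner of the NRF2 and AP-1 families, had 60.1, 34.1 and 59.7 CPM in KO 12 h livers, against 4.86, 4.79 and 3.58 CPM in KO 3 h livers (3.53). Junb, an AP-1 subunit, had 71.2, 68.5 and 86.6 CPM in KO 12 h livers, against 17.2, 12.0 and 11.8 CPM in KO 3 h livers (2.45). Klf6, a zinc finger factor of injured liver, had 102, 59.7 and 57.3 CPM in KO 12 h livers, against 20.0, 10.9 and 16.6 CPM in KO 3 h livers (2.18). None of these groups of libraries overlapped, which the naming rule required of Atf3 and Maff.

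Fosb was close to absent at 3 h. It had 12.6, 3.44 and 6.64 CPM in KO 12 h livers (76 reads in all), against 0, 0 and 0.156 CPM in KO 3 h livers (1 read). The pooled ratio of reads per scaled library was 131, with a 95% interval of 22.7 to 5226 that covers counting error only. Among genes chosen after their values were seen, Fos had 68.6, 52.8 and 82.1 CPM in KO 12 h livers, against 10.3, 17.6 and 7.16 CPM in KO 3 h livers and Egr1 had 629, 683 and 553 CPM in KO 12 h livers, against 172, 214 and 174 CPM in KO 3 h livers. Jun, which JNK phosphorylates, had 504, 406 and 445 CPM in KO 12 h livers, against 241, 264 and 235 CPM in KO 3 h livers, a smaller change of 0.87. Myc, a driver of growth and ribosome production, had 44.0, 29.2 and 36.3 CPM in KO 12 h livers, against 8.10, 5.66 and 8.71 CPM in KO 3 h livers. For each of the 4 genes every 12 h library lay above every 3 h library. Btg2, an antiproliferative gene that p53 and growth signals both raise, had 596, 694 and 686 CPM in KO 12 h livers, against 113, 119 and 87.9 CPM in KO 3 h livers (2.63). The 3 members not called were Dusp1 (0.65, adjusted p = 0.165), Klf2 (0.50, 0.18) and Srf (0.39, 0.332).

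The earlier KO times show which of these genes were already high before 12 h. Egr1 averaged 7.71 ± 6.14 CPM at 0 h, 188 ± 57.9 CPM at 1 h, 187 ± 23.8 CPM at 3 h and 622 ± 65.5 CPM at 12 h (SD, n = 3 each). It thus stood at the 1 h level at 3 h, and above it at 12 h. Jun averaged 11.3 ± 3.20 CPM at 0 h, 216 ± 20.0 CPM at 1 h, 246 ± 15.1 CPM at 3 h and 451 ± 49.4 CPM at 12 h. Atf3 averaged 0.508 ± 0.310 CPM at 0 h, 6.41 ± 1.26 CPM at 1 h, 12.6 ± 1.57 CPM at 3 h and 130.5 ± 25.8 CPM at 12 h, higher at each later time. Myc averaged 5.48 ± 2.30 CPM at 0 h, 5.40 ± 2.61 CPM at 1 h, 7.49 ± 1.61 CPM at 3 h and 36.5 ± 7.37 CPM at 12 h, close together up to 3 h. Socs3 and Cxcl10, described below, were likewise low up to 3 h.

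**Figure D2:**
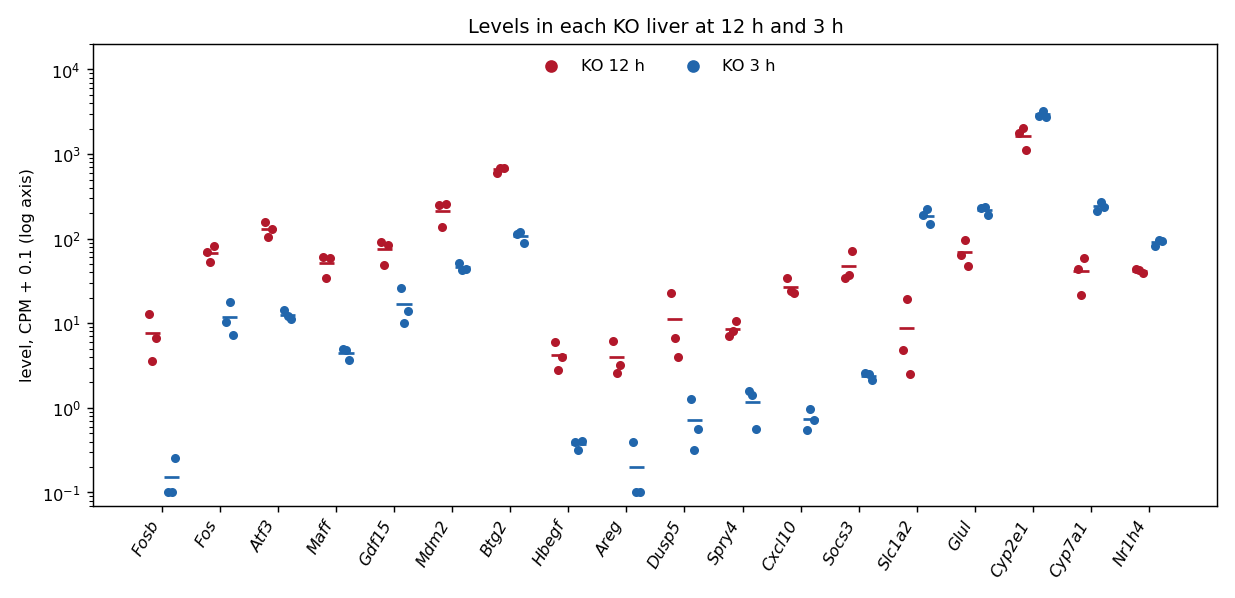
CPM + 0.1 on a log axis for 18 genes named in the text, with 1 point per liver, KO 12 h in red to the left and KO 3 h in blue to the right of each gene, and short bars at the group means. The colours do not overlap within any of these genes, which the naming rule required of the leading ones. Slc1a2, Cyp7a1 and Glul are lower in red while Atf3, Socs3 and Cxcl10 are higher.

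The promoters of 5 of the stress genes with the smallest p are shown. All 5 were picked from genes called higher in the step, so their shared direction was set by the choice. Each is the 250 bases before the start of transcription, 5′ to 3′ on the gene's strand, from RefSeq on build GRCm38.p6, matched by symbol. Capitals mark the matches to the motifs searched.
Maff: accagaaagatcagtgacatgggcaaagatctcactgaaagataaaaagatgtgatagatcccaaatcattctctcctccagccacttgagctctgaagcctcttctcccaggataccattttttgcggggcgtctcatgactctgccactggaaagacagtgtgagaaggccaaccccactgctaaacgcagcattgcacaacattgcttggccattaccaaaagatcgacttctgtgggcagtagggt
Atf3: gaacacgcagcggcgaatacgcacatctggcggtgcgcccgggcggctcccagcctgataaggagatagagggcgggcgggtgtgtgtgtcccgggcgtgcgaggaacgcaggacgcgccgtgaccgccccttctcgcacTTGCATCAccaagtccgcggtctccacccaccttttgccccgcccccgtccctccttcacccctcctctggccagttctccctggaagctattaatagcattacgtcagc
Ppp1r15a: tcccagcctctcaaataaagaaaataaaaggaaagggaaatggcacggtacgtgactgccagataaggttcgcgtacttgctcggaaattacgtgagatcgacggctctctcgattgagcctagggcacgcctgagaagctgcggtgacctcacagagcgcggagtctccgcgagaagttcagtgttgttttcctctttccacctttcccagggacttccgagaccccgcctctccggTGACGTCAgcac
Junb: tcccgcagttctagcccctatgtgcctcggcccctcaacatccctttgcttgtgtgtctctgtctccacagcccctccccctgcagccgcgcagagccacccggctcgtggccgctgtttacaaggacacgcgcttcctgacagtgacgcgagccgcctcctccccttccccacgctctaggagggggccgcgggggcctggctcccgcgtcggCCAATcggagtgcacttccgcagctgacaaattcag
Klf6: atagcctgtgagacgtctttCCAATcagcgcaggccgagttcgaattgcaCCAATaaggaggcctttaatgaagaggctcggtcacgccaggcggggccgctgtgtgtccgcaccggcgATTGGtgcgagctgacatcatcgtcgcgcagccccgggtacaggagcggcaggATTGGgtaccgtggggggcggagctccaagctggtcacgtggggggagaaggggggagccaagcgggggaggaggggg
The Maff window (chr15:79346371-79346620, plus strand), 1 of 3 in the table for this gene, holds none of the motifs searched. The Atf3 window (chr1:191183334-191183583, minus strand) holds TTGCATCA, the reverse of the composite site TGATGNAA of ATF4 and C/EBP, starting 110 bases before the start. The Ppp1r15a window (chr7:45526269-45526518, minus strand) holds the cyclic AMP response element TGACGTCA starting 12 bases before it. The Junb window (chr8:84978749-84978998, minus strand) holds CCAAT starting 36 bases before it. The Klf6 window (chr13:5861239-5861488, plus strand) holds CCAAT or its reverse ATTGG at 4 places. Motifs were searched on both strands, and none of the printed matches overlaps another. Of all 32544 windows in the table, 3.40% hold the composite site, 1.55% hold TGACGTCA, 33.8% hold CCAAT, 6.73% hold the AP-1 site TGANTCA and 12.3% hold TATAAA. The heat shock element is in 0.470%. Of 28 called stress genes with a window, 1 holds the composite site, 3 hold TGACGTCA, 14 hold CCAAT, 2 hold TGANTCA, 2 hold TATAAA and none holds the heat shock element. A gene was counted if any of its windows held the motif, whereas the shares above are of single windows. The gene counts and the shares are therefore not on the same footing, and no difference between them was tested. A match describes letters and is not evidence of binding.

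The integrated stress response, in which kinases that phosphorylate eIF2 alpha slow translation and favour ATF4, rose in some of its members. Of 18 tested, 7 were higher and 1 was lower, with a median of 0.42. The higher members include Atf3, counted above among the immediate early genes. Ddit3, which encodes the death-linked factor CHOP, had 57.2, 34.9 and 27.6 CPM in KO 12 h livers, against 9.86, 8.28 and 7.47 CPM in KO 3 h livers (2.22, adjusted p = 2.02e-07). Ppp1r15a, which encodes GADD34, the subunit that restores translation, had 40.4, 24.6 and 41.9 CPM in KO 12 h livers, against 9.57, 11.5 and 11.2 CPM in KO 3 h livers (1.72). Gdf15, a circulating stress hormone, had 90.9, 49.1 and 83.5 CPM in KO 12 h livers, against 26.3, 10.0 and 14.0 CPM in KO 3 h livers (2.11). Every 12 h liver was above every 3 h liver for all 3 genes, and KO 12 h replicate 2 was the lowest of its group for Gdf15. Cebpb (1.02), Slc3a2 (0.73) and Psat1 (2.20) rose as well. Atf4 had 73.6, 79.8 and 78.9 CPM in KO 12 h livers, against 68.6, 61.7 and 58.0 CPM in KO 3 h livers, a change of 0.30 that did not pass (adjusted p = 0.13). The list members Asns (-0.39) and Chac1 (-0.02) did not pass either. None of the 20 aminoacyl-tRNA synthetases was called.

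Some chaperones passed the test, in both directions. Among 19 genes of the endoplasmic reticulum, 3 were higher and 2 lower (median -0.18). The lower count was 1 without KO 3 h replicate 2 or KO 12 h replicate 2, and 3 without KO 12 h replicate 1 or 3. Hspa5, the chaperone BiP, had 471, 475 and 518 CPM in KO 12 h livers, against 236, 304 and 323 CPM in KO 3 h livers (0.76), and Xbp1 (0.66) and Dnajb9 (0.63) rose with it. Edem1, which sends misfolded glycoproteins to degradation, fell by 0.44 on the log2 scale. In WT livers 5 of the 19 were higher and none was lower (median 0.41, and 0.28 without WT 3 h replicates 2 and 3). None of the 19 passed the test of the difference between the KO and WT steps. Of 18 cytosolic heat shock genes, 2 were higher and 1 was lower. Dnajb1, a cofactor of HSP70, had 102, 81.8 and 51.0 CPM in KO 12 h livers, against 16.0, 35.3 and 15.2 CPM in KO 3 h livers (1.86, adjusted p = 0.000849). Hspa8, the constitutive HSP70, had a change of 0.47 that was lost without KO 3 h replicate 1 (adjusted p = 0.117) or KO 12 h replicate 1 (0.0913). Hspa1b, an inducible HSP70, was 2.34, 1.47 and 1.397 CPM in KO 12 h livers, against 2.80, 10.9 and 4.36 CPM in KO 3 h livers, and its change of -1.69 rested on single libraries. Without KO 3 h replicate 2 its adjusted p was 0.195, and without KO 12 h replicates 1, 2 and 3 in turn it was 0.0768, 0.149 and 0.124.

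Targets of p53, the factor activated by DNA damage and other stress, rose in 6 of 16 tested members, with none lower and a median of 0.69. The higher members include Btg2 and Gdf15, which were counted above among the immediate early and the integrated stress response genes. Mdm2, the ubiquitin ligase that limits p53, had 250.3, 138 and 254 CPM in KO 12 h livers, against 50.9, 42.5 and 44.2 CPM in KO 3 h livers. Every KO 12 h liver was above the highest KO 3 h liver (2.22, SE 0.174, adjusted p = 5.85e-10). Mdm2 averaged 41.1 ± 6.75 CPM at 0 h, 45.1 ± 1.77 CPM at 1 h, 45.9 ± 4.47 CPM at 3 h and 214 ± 66.1 CPM at 12 h, so that its levels up to 3 h lay close together. Plk3 (288, 261 and 339.8 CPM in KO 12 h livers, against 111, 80.6 and 85.6 CPM in KO 3 h livers) and Plk2 (12.9, 15.7 and 22.3 CPM in KO 12 h livers, against 5.30, 5.45 and 5.13 CPM in KO 3 h livers), stress kinases, rose by 1.68 and 1.67. Cdkn1a, the cell cycle inhibitor p21, had 103, 102 and 113 CPM in KO 12 h livers, against 44.2, 55.6 and 55.1 CPM in KO 3 h livers. Its groups did not overlap, but it did not pass (1.04, adjusted p = 0.0573).

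Among targets of NRF2, which answers electrophiles such as the acetaminophen metabolite, 7 of 27 were higher and 1 was lower. The list median was 0.16, and -0.08 with library size alone. The count was 3 without KO 3 h replicate 2, 2 without KO 3 h replicate 3, 4 without KO 12 h replicate 1 and 3 without KO 12 h replicate 3. Osgin1, an oxidative stress growth inhibitor, had 132, 102 and 189 CPM in KO 12 h livers, against 36.2, 24.8 and 30.7 CPM in KO 3 h livers (2.19, adjusted p = 6e-06). Txnrd1, which keeps thioredoxin reduced, had 170.3, 156 and 159 CPM in KO 12 h livers, against 90.5, 94.6 and 91.6 CPM in KO 3 h livers (0.81). Both were higher in every 12 h liver. Hmox1, the heme-degrading oxygenase, had 336, 179.6 and 296 CPM in KO 12 h livers, against 128, 60.8 and 72.7 CPM in KO 3 h livers, with KO 3 h replicate 1 highest of its group. Its change of 1.63 (adjusted p = 0.0184) was lost without KO 3 h replicate 2 (0.086) or 3 (0.082) and without KO 12 h replicate 1 (0.0747) or 3 (0.0515). Gclc, which catalyses the limiting step of glutathione synthesis, had 198, 148 and 219 CPM in KO 12 h livers, against 151, 95.2 and 96.2 CPM in KO 3 h livers, with overlap. Its call (0.72) was lost without the same 4 libraries (0.0676, 0.0658, 0.0518 and 0.0675). Mat2a, which makes S-adenosylmethionine, rose to 153, 113 and 156 CPM at 12 h, against 46.2, 55.1 and 46.5 CPM at 3 h (1.52). Bhmt2, a methionine-forming methyltransferase with the close paralog Bhmt, fell by 0.59 on the log2 scale. Of the 20 glutathione and methionine enzymes 2 were higher and 2 lower, and each count was 1 without KO 3 h replicate 2 or 3 or KO 12 h replicate 3.

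Of 8 tested genes of the EGFR family and its ligands, 2 ligands rose and 1 receptor fell. Hbegf had 5.86, 2.70 and 3.84 CPM in KO 12 h livers, against 0.294, 0.218 and 0.311 CPM in KO 3 h livers (3.77, adjusted p = 2.24e-05). Areg, which encodes amphiregulin, had 6.16, 2.46 and 3.14 CPM in KO 12 h livers (40 reads), against 0.294, 0 and 0 CPM in KO 3 h livers (2 reads). Its pooled ratio was 34.4 (95% interval 8.91 to 294, counting error only). Both were low genes that every 12 h library held above every 3 h library. Erbb3, a partner receptor, fell to 25.2, 30.5 and 27.2 CPM at 12 h, against 43.9, 39.2 and 42.6 CPM at 3 h (-0.60). Tgfa (-0.29), Egf (0.54), Btc (0.93) and Erbb4 (0.41) did not pass (adjusted p from 0.0932 to 0.779).

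Negative regulators and targets of ERK rose in 10 of 12 tested members, with none lower and a median of 1.31. Dusp5, a nuclear ERK phosphatase, had 22.6, 6.63 and 3.84 CPM in KO 12 h livers, against 1.18, 0.218 and 0.467 CPM in KO 3 h livers (4.01). KO 12 h replicate 1 was far above the other 12 h livers, which were still above the 3 h livers. Phlda1 had 113, 49.4 and 58.3 CPM in KO 12 h livers, against 7.80, 12.0 and 5.76 CPM in KO 3 h livers (3.15). Spry4, which blocks signalling upstream of ERK, had 7.03, 8.11 and 10.5 CPM in KO 12 h livers, against 1.47, 1.31 and 0.467 CPM in KO 3 h livers (2.96). Spred2 had 67.4, 66.6 and 59.0 CPM in KO 12 h livers, against 27.4, 23.3 and 22.7 CPM in KO 3 h livers, an even rise of 1.39 (adjusted p = 1.05e-07). Errfi1, the EGFR inhibitor MIG6, had 924, 895 and 876 CPM in KO 12 h livers, against 925, 949 and 984 CPM in KO 3 h livers and did not pass (-0.08, adjusted p = 0.702).

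Of 17 genes of the JNK and p38 pathways, the stress kinases, 7 were higher and 1 lower (median 0.65). Mapkapk2, a kinase activated by p38, had 101, 93.4 and 98.8 CPM in KO 12 h livers, against 42.5, 48.1 and 40.9 CPM in KO 3 h livers (1.16, adjusted p = 1.09e-07). Gadd45b, which activates these kinases, had 17.9, 21.9 and 28.3 CPM in KO 12 h livers, against 6.04, 5.66 and 9.18 CPM in KO 3 h livers (1.68). Dusp8 (1.91) and Dusp10 (2.08), phosphatases that switch JNK and p38 off, rose too. The groups did not overlap for these 4 genes.

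Some inflammatory signalling genes rose, and no acute phase protein was called. Cxcl10, a chemokine that draws T cells, had 34.3, 24.1 and 22.7 CPM in KO 12 h livers, against 0.442, 0.871 and 0.622 CPM in KO 3 h livers (5.40, SE 0.374, adjusted p = 2.32e-11). Cxcl1, which draws neutrophils, had 13.2, 3.19 and 2.10 CPM in KO 12 h livers, against 0.589, 0 and 0.311 CPM in KO 3 h livers (4.13), with KO 12 h replicate 1 highest. Nfkbiz, a nuclear partner of NF-kB, had 56.6, 72.7 and 67.0 CPM in KO 12 h livers, against 10.6, 16.6 and 11.4 CPM in KO 3 h livers (2.37). Of 14 tested NF-kB targets 4 were higher and none lower (3 higher whichever 1 of the 6 libraries was left out). Nfkbia, the classical feedback inhibitor, had 31.9, 27.3 and 25.8 CPM in KO 12 h livers, against 30.03, 25.1 and 26.8 CPM in KO 3 h livers, and its groups overlapped (0.05, adjusted p = 0.861). The Kupffer, neutrophil and endothelial marker sums given above were also higher at 12 h, and their part in these results was not tested.

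Socs3, the inhibitor that IL-6 and STAT3 induce, had 34.3, 37.1 and 71.6 CPM in KO 12 h livers, against 2.502, 2.40 and 2.02 CPM in KO 3 h livers (4.34, adjusted p = 2.32e-11). Its mean levels were 5.37 ± 1.56 CPM at 0 h, 2.04 ± 0.126 CPM at 1 h, 2.31 ± 0.252 CPM at 3 h and 47.7 ± 20.8 CPM at 12 h. Of 12 genes of IL-6 and STAT3 signalling 8 were higher, among them the receptor genes Il4ra (1.56) and Osmr (1.81) and the kinase genes Jak2 (0.84) and Pim1 (1.94). None was lower (median 0.77). Of 25 acute phase proteins, the secreted products of the same pathway, none was called, with a median of 0.12 that was -0.15 with library size alone. Saa1, a serum amyloid A, had 3.52, 5.90 and 195 CPM in KO 12 h livers, against 33.7, 6.75 and 2.80 CPM in KO 3 h livers. KO 12 h replicate 3 stood alone, KO 3 h replicate 1 was next, and the change did not pass (2.14, adjusted p = 0.402). Saa2 had 1.47, 2.21 and 165 CPM in KO 12 h livers, against 33.6, 1.53 and 2.33 CPM in KO 3 h livers, with the same order of libraries at the top. Serpina3n lay at 133, 179.8 and 145 CPM in KO 12 h livers, against 161, 145 and 151 CPM in KO 3 h livers, with overlap. In the WT step 21 of the 25 were lower (median -1.42), and 0 of 26 without WT 3 h replicates 2 and 3, the libraries that stood apart (median -0.02).

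Interferon-stimulated genes rose in 6 of 17 tested members, with none lower (median 0.62). Irf1, a factor induced by interferon gamma, had 11.4, 5.90 and 10.1 CPM in KO 12 h livers, against 4.12, 2.40 and 3.58 CPM in KO 3 h livers (1.38). Ifit3 had 11.1, 3.19 and 9.43 CPM in KO 12 h livers, against 2.06, 2.18 and 2.18 CPM in KO 3 h livers (1.84) and Ifit2 had 7.62, 1.97 and 7.33 CPM in KO 12 h livers, against 1.91, 0.654 and 1.09 CPM in KO 3 h livers (2.07). KO 12 h replicate 2 was the lowest of the 12 h livers for all 3, and the groups still did not overlap. Over the whole list KO 12 h replicate 1 was highest, with a mean log2 level of 3.61, against 2.64 and 3.04 for the other 12 h livers and 2.35 to 2.72 for the 3 h livers. The count was 3 without KO 12 h replicate 1.

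Several genes of the pericentral zone fell. Of 18 tested, 7 were lower and none was higher (median -0.86), whereas none of 19 periportal genes was called. Slc1a2, a glutamate transporter of the cells next to the central vein, had 4.69, 19.2 and 2.44 CPM in KO 12 h livers, against 188, 225 and 149 CPM in KO 3 h livers (-4.31, SE 0.475, adjusted p = 8.43e-06). Every 12 h liver was far below every 3 h liver, and KO 12 h replicate 2 kept the most. Glul, glutamine synthetase of the same cells, had 64.5, 96.5 and 47.8 CPM in KO 12 h livers, against 229, 239.6 and 188 CPM in KO 3 h livers (-1.64). Oat, ornithine aminotransferase, had 125, 148 and 104 CPM in KO 12 h livers, against 292, 358 and 261 CPM in KO 3 h livers (-1.27). In all 3 genes KO 12 h replicate 3 was lowest and replicate 2 highest among the 12 h livers. Gulo, which in mice completes vitamin C synthesis, had 26.7, 25.1 and 26.9 CPM in KO 12 h livers, against 56.2, 46.8 and 39.7 CPM in KO 3 h livers (-0.86). Slc22a3, an organic cation transporter, fell to 0.879, 1.72 and 1.05 CPM, against 6.04, 5.23 and 3.89 CPM at 3 h, and 57.3% of its stranded reads lay on its own strand. Cyp2e1, the enzyme that activates the drug, had 1769, 2016 and 1126 CPM in KO 12 h livers, against 2843, 3229.6 and 2776 CPM in KO 3 h livers (-0.85, adjusted p = 0.00517). It remained among the highest genes at both times.

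Phase I drug metabolism was lower in 10 of 28 tested genes and higher in none (median -0.38). The count was 6 without KO 3 h replicate 2 and 6 without KO 12 h replicate 2. The Cyp2c family gave most of the calls. Cyp2c38 had 6.45, 6.14 and 3.84 CPM in KO 12 h livers, against 22.2, 41.6 and 24.4 CPM in KO 3 h livers (-2.37) and Cyp2c37 had 32.5, 46.4 and 31.8 CPM in KO 12 h livers, against 96.9, 121 and 95.1 CPM in KO 3 h livers (-1.48). Members of this family share sequence, and reads that fit several genes were set apart, so the level of each is uncertain. Fmo5, a flavin monooxygenase, had 189, 189 and 241 CPM in KO 12 h livers, against 340.0, 319 and 314 CPM in KO 3 h livers (-0.65). Of 18 genes that conjugate acetaminophen 2 were lower, and both were lost without some single libraries. Those were Ugt1a1 (-0.50), for glucuronidation, and Papss2 (-0.41), for the sulfate donor. Ugt1a1 was lost without KO 3 h replicate 3 (0.0548), KO 12 h replicate 1 (0.0621) or KO 12 h replicate 2 (0.0825). Papss2 was lost without KO 3 h replicate 1 (0.103), KO 3 h replicate 3 (0.118), KO 12 h replicate 1 (0.135) or KO 12 h replicate 3 (0.0576).

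**Figure D3:**
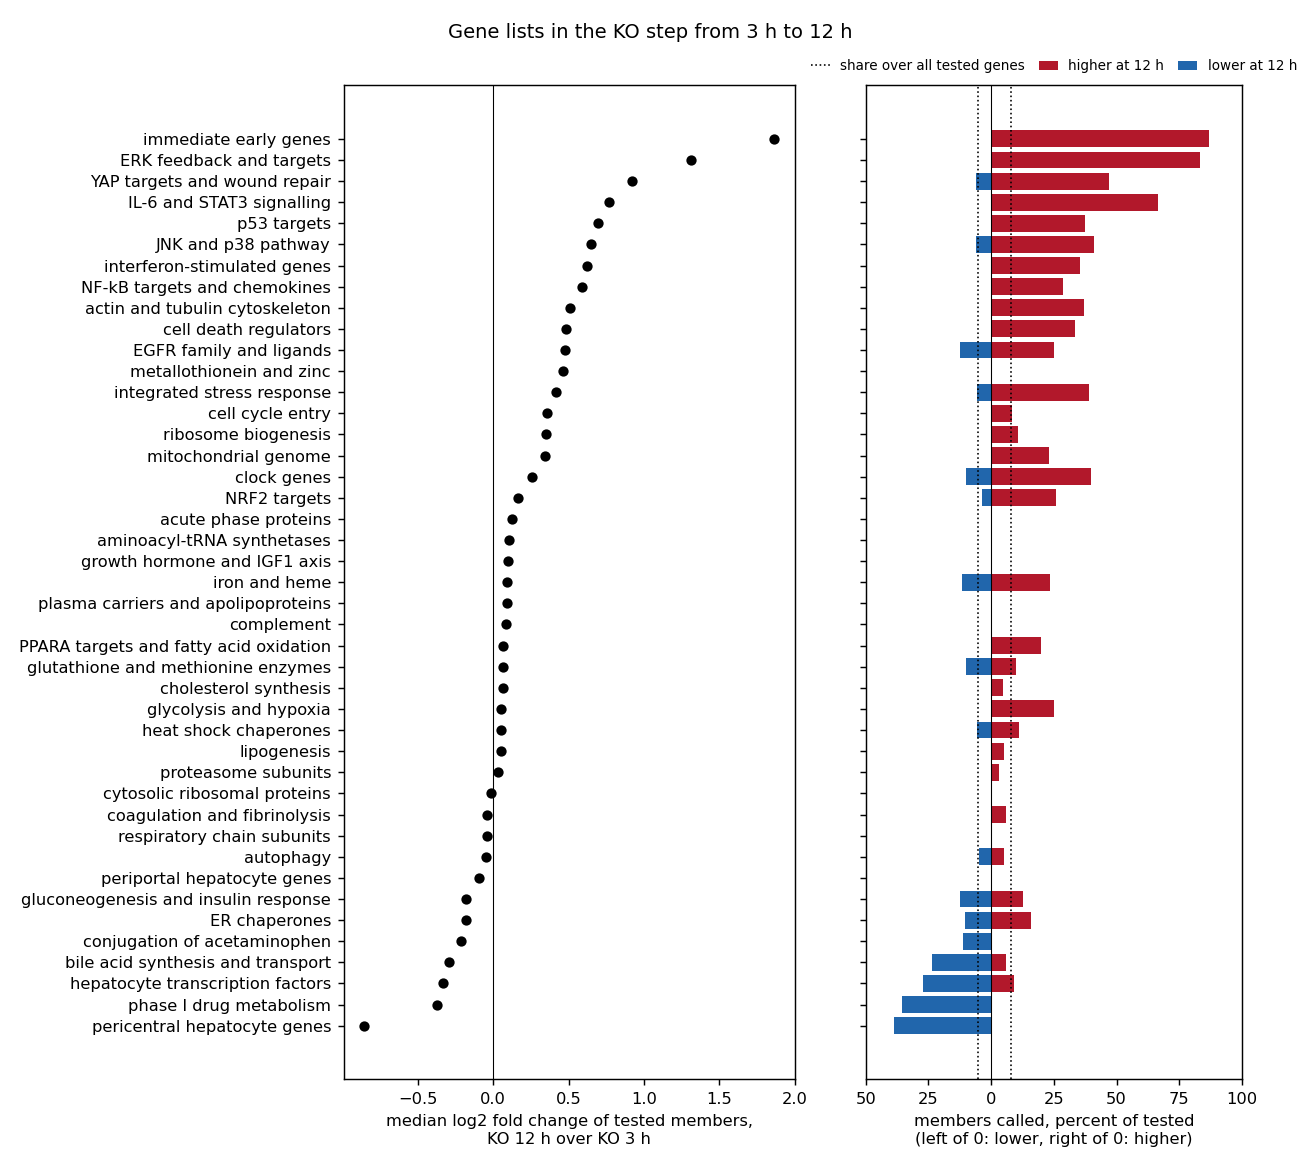
For each of 43 gene lists the left panel gives the median log2 fold change, KO 12 h over KO 3 h, of its tested members, and the right panel the percent of them called higher and lower, with dotted lines at 7.84% and 5.06%, the shares over all tested genes. Immediate early genes and ERK targets stand highest with 20 of 23 and 10 of 12 called higher, and pericentral genes are lowest with 7 of 18 called lower.

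Hepatocyte transcription factors fell more often than they rose, 6 of 22 against 2. Nr1h4, which encodes the bile acid receptor FXR, had 44.0, 42.3 and 39.5 CPM in KO 12 h livers, against 81.8, 97.2 and 92.6 CPM in KO 3 h livers (-1.11, SE 0.147, adjusted p = 2.18e-06). The 12 h livers were close together and all below the 3 h livers. Prox1, which sets hepatocyte identity, had 73.9, 93.1 and 69.5 CPM in KO 12 h livers, against 146, 152 and 139 CPM in KO 3 h livers (-0.88). Ppara, the fatty acid sensor, had 75.6, 84.3 and 95.7 CPM in KO 12 h livers, against 169, 133 and 135 CPM in KO 3 h livers (-0.78). Nr5a2, the bile acid regulator LRH-1, fell by 0.63 on the log2 scale. For all 4 genes the groups did not overlap. The 2 higher members were Creb3l3 (0.40) and Cebpa (0.56), and both calls were lost without KO 3 h replicate 3 or KO 12 h replicate 3 (highest adjusted p 0.0885 and 0.0723). Hnf4a, the master factor of the hepatocyte, had 267, 238 and 240.3 CPM in KO 12 h livers, against 319, 307 and 311 CPM in KO 3 h livers, a small change of -0.33 that was lost without KO 3 h replicate 1 (0.111), KO 3 h replicate 2 (0.0757), KO 3 h replicate 3 (0.085), KO 12 h replicate 2 (0.115) or KO 12 h replicate 3 (0.103).

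Bile acid genes were lower in 4 of 17 tested members and higher in 1 (median -0.29). Cyp7a1, the rate-limiting enzyme of bile acid synthesis, had 43.4, 21.6 and 59.7 CPM in KO 12 h livers, against 214, 269.9 and 239 CPM in KO 3 h livers (-2.56, SE 0.457, adjusted p = 0.00108). Its levels over time were 174 ± 26.7 CPM at 0 h, 131 ± 34.3 CPM at 1 h, 241 ± 27.8 CPM at 3 h and 41.6 ± 19.1 CPM at 12 h. Those at 12 h were the lowest. Baat, which conjugates bile acids to amino acids, had 112, 121 and 169 CPM in KO 12 h livers, against 223, 191 and 202 CPM in KO 3 h livers (-0.62). Both were lower in every 12 h liver. The count was 2 without KO 3 h replicate 1, 2 without KO 12 h replicate 1 and 2 without KO 12 h replicate 2.

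Several fasting and lipid genes rose. Pdk4, which shuts pyruvate off from oxidation, had 222, 241 and 274 CPM in KO 12 h livers, against 27.7, 25.9 and 46.8 CPM in KO 3 h livers (2.87). Plin2, a coat protein of lipid droplets, had 518, 617 and 484 CPM in KO 12 h livers, against 183, 215 and 187 CPM in KO 3 h livers (1.47). Cidec, which enlarges such droplets, had 120.5, 147 and 80.7 CPM in KO 12 h livers, against 18.3, 30.1 and 27.9 CPM in KO 3 h livers (2.21). Hilpda, a hypoxia-inducible inhibitor of droplet lipolysis, had 48.1, 36.1 and 56.2 CPM in KO 12 h livers, against 1.91, 0.871 and 1.24 CPM in KO 3 h livers (5.04, adjusted p = 3.3e-10). None of these 4 genes had overlapping groups, which the naming rule required of Hilpda. Of 30 PPARA targets and oxidation genes 6 were higher and none lower, with a median that turns sign with library size alone (0.07 with TMM and -0.18 without it). The count was 3 without KO 12 h replicate 2. Lpin2 (0.79) was the only call among 19 lipogenesis genes.

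Of 16 genes of gluconeogenesis and insulin response 2 were higher and 2 lower (1 lower without KO 12 h replicate 3). Glycogen had no list of its own, and 2 of its regulators were among the leading lower genes. Ppp1r3c, which targets a phosphatase to glycogen, had 1.47, 1.72 and 3.49 CPM in KO 12 h livers, against 11.8, 21.6 and 18.4 CPM in KO 3 h livers (-2.98). Ppp1r3b, the main liver subunit of that kind, had 40.4, 27.02 and 34.9 CPM in KO 12 h livers, against 88.9, 122 and 116 CPM in KO 3 h livers (-1.68). Irs1, an insulin receptor substrate, had 6.74, 7.12 and 10.8 CPM in KO 12 h livers, against 19.7, 15.0 and 16.3 CPM in KO 3 h livers (-1.08). All 3 were lower in every 12 h liver. Sik1, a kinase induced by cyclic AMP, rose to 43.7, 38.8 and 111 CPM, against 12.8, 8.28 and 9.65 CPM at 3 h (2.61). Among 20 genes of glycolysis and hypoxia 5 were higher and none lower. The count was 3 without KO 12 h replicate 1. Hif1a had 125, 106 and 116 CPM in KO 12 h livers, against 57.1, 66.9 and 64.4 CPM in KO 3 h livers (0.89) and Vegfa, its angiogenic target, had 149, 136 and 125 CPM in KO 12 h livers, against 81.0, 76.3 and 66.1 CPM in KO 3 h livers (0.88). Pkm, the glycolytic pyruvate kinase of dividing and non-parenchymal cells, had 7.03, 8.11 and 9.78 CPM in KO 12 h livers, against 3.24, 2.83 and 2.80 CPM in KO 3 h livers (1.47).

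Clock genes moved in 10 of 20 tested members, 8 higher and 2 lower (1 lower without KO 3 h replicate 1 or 2 or KO 12 h replicate 1 or 3). Per2 had 29.9, 38.8 and 25.5 CPM in KO 12 h livers, against 11.5, 11.5 and 9.34 CPM in KO 3 h livers (1.56), Per1 had 36.9, 38.8 and 45.7 CPM in KO 12 h livers, against 22.4, 19.2 and 16.3 CPM in KO 3 h livers (1.06) and Nfil3 had 33.4, 30.95 and 46.1 CPM in KO 12 h livers, against 16.9, 14.4 and 13.2 CPM in KO 3 h livers (1.29). Tef, a clock output factor, had 22.9, 24.8 and 23.4 CPM in KO 12 h livers, against 50.9, 44.9 and 41.9 CPM in KO 3 h livers (-0.95). Each of these groups was apart. Bhlhe40, a repressor that hypoxia and stress also induce, had 66.2, 57.0 and 129 CPM in KO 12 h livers, against 14.0, 11.3 and 15.6 CPM in KO 3 h livers (2.60). The time of day at which the livers were taken is not given, so time of day and the drug cannot be told apart here.

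**Figure D4:**
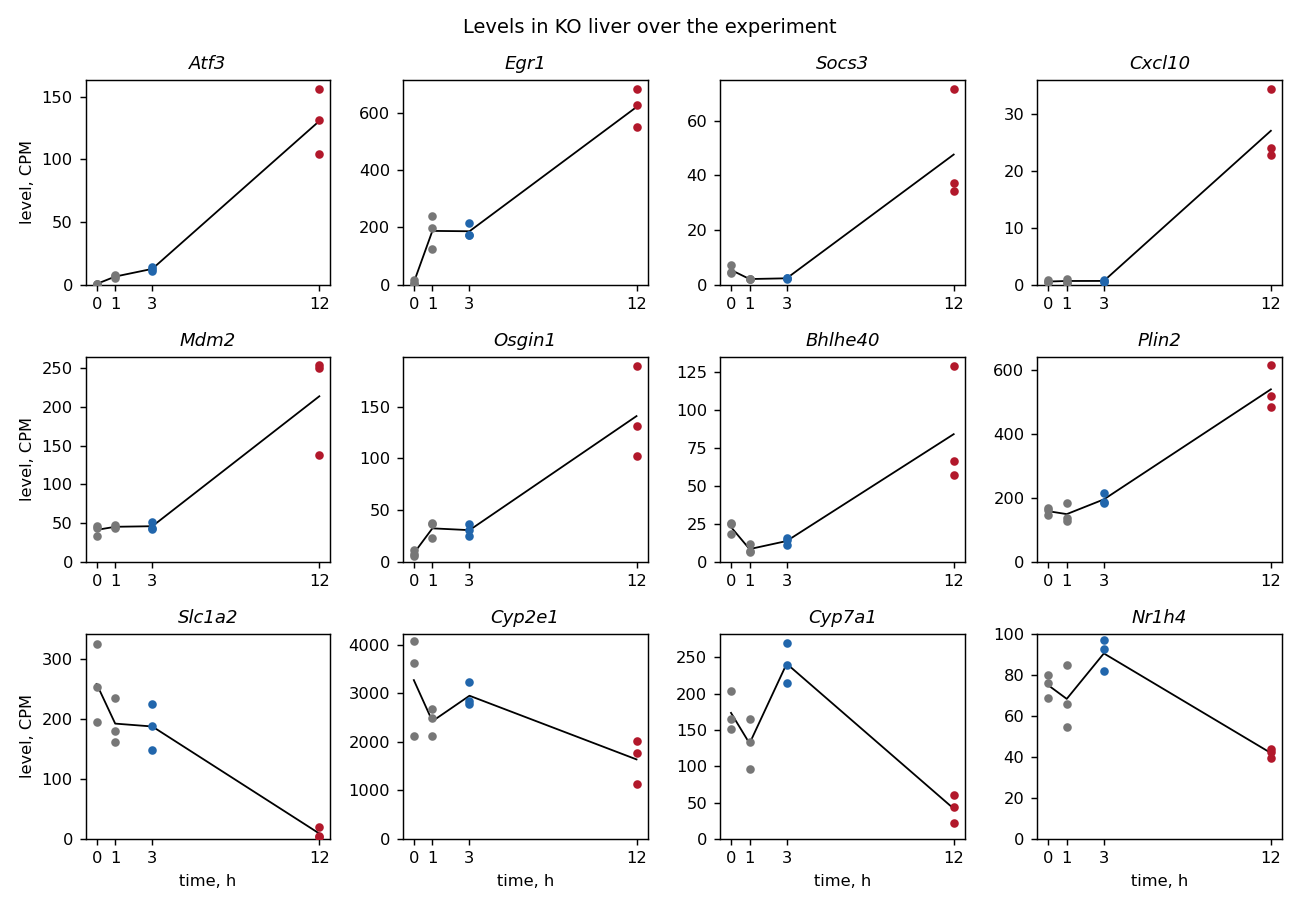
CPM of 12 genes in KO livers at 0, 1, 3 and 12 h, with 1 point per liver and a line through the means, each panel on its own linear axis from 0. Atf3, Socs3, Cxcl10, Mdm2 and Osgin1 reach their highest levels at 12 h, and Slc1a2, Cyp7a1 and Nr1h4 their lowest.

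Some genes of wound repair and of the cytoskeleton rose. Of 17 YAP targets and repair genes 8 were higher and 1 lower (median 0.92). Tnfrsf12a, the receptor for the cytokine TWEAK, had 23.4, 18.2 and 20.6 CPM in KO 12 h livers, against 1.91, 1.74 and 3.11 CPM in KO 3 h livers (3.16, adjusted p = 1.68e-09). Ccn1, a matricellular YAP target, had 17.9, 19.4 and 26.9 CPM in KO 12 h livers, against 5.15, 6.10 and 2.96 CPM in KO 3 h livers (2.19). Krt18, a hepatocyte keratin, had 177, 101 and 110.0 CPM in KO 12 h livers, against 46.2, 32.5 and 35.5 CPM in KO 3 h livers (1.76), and its partner Krt8 had 608, 191 and 222 CPM in KO 12 h livers, against 91.4, 78.0 and 65.0 CPM in KO 3 h livers. Krt8 was highest in KO 12 h replicate 1, and the groups of all 4 genes were apart. Sox9, found in cholangiocytes and in reprogrammed hepatocytes, had 76.8, 25.8 and 109 CPM in KO 12 h livers, against 9.86, 8.06 and 13.4 CPM in KO 3 h livers (2.71). It missed with only the compared groups in the fit (adjusted p = 0.058), and the cholangiocyte markers Krt7, Krt19, Epcam and Cftr were too low to test.

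Of 19 cytoskeletal genes 7 were higher and none lower (median 0.51). Actb, beta actin, had 221, 150.1 and 154 CPM in KO 12 h livers, against 107, 88.7 and 89.5 CPM in KO 3 h livers (0.88) and Actg1, gamma actin, had 148, 95.6 and 92.2 CPM in KO 12 h livers, against 48.1, 48.4 and 47.3 CPM in KO 3 h livers (1.22). Tubb2a, a beta tubulin, had 49.5, 54.5 and 55.2 CPM in KO 12 h livers, against 20.5, 19.6 and 18.7 CPM in KO 3 h livers (1.44). None of the 3 overlapped between the times. Tpm4, a tropomyosin (0.98), and S100a10, a partner of annexin A2 (0.88), rose too. These genes have close paralogs, and their levels are uncertain to that extent. They are expressed more strongly in non-parenchymal cells than in hepatocytes, the marker sums of those cells were higher at 12 h, and their part in the result was not tested.

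Cell death regulators of both kinds rose, 5 of 15 with none lower. Mcl1, a survival protein, had 135, 80.8 and 96.0 CPM in KO 12 h livers, against 46.5, 36.4 and 40.5 CPM in KO 3 h livers (1.33), and Bcl2l1, which encodes BCL-XL, had 31.4, 17.9 and 16.1 CPM in KO 12 h livers, against 7.07, 5.88 and 6.07 CPM in KO 3 h livers (1.77). Bcl2l11, which encodes the pro-apoptotic BIM, had 23.2, 21.4 and 27.2 CPM in KO 12 h livers, against 10.3, 12.0 and 14.5 CPM in KO 3 h livers (0.96). All 3 were higher in every 12 h liver. Ripk1 (0.59) rose but missed with library size alone (adjusted p = 0.0672). Sqstm1, the autophagy receptor p62 and an NRF2 target, had 266, 203 and 224 CPM in KO 12 h livers, against 119, 113 and 108 CPM in KO 3 h livers (1.02). Slc40a1, the iron exporter ferroportin, had 14.7, 18.2 and 18.9 CPM in KO 12 h livers, against 41.5, 38.3 and 41.4 CPM in KO 3 h livers (-1.23). Id1, which BMP signals induce, had 6.74, 5.16 and 4.54 CPM in KO 12 h livers, against 1.91, 1.31 and 1.87 CPM in KO 3 h livers (1.66). Slc40a1 and Id1 moved in opposite directions, with no overlap in either.

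Other leading genes belong to no list. Otud1, a deubiquitinase, had 42.2, 21.6 and 59.4 CPM in KO 12 h livers, against 3.09, 2.83 and 2.65 CPM in KO 3 h livers (3.81). Slc16a6, a ketone body transporter, had 78.0, 61.7 and 55.2 CPM in KO 12 h livers, against 3.68, 5.23 and 8.40 CPM in KO 3 h livers (3.49). The 12 h levels of both lay above every 3 h level, as the rule that named them required. Garin1a (4.07) and Ccdc180 (3.36) completed the 12 leading higher genes. Among the leading lower genes Spata2l (-2.98), Zfp961 (-1.75), Prob1 (-1.62) and Dnajc28 (-1.61) were low genes, with mean levels at 3 h of 6.17, 5.62, 14.5 and 9.21 CPM.

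Several groups had no calls in this step. None of 35 nuclear-encoded respiratory chain subunits, 33 cytosolic ribosomal proteins, 20 plasma carriers and apolipoproteins, 18 complement genes, 13 genes of the growth hormone axis or 7 metallothionein and zinc genes passed the test. Even so, metallothionein and zinc genes summed to 1214 to 1547 CPM at 12 h, against 692 to 849 CPM at 3 h. The growth hormone axis (4104 to 4511 against 3297 to 3812 CPM) and the plasma carriers and apolipoproteins (57760 to 58182 against 52903 to 54722 CPM) also lay apart. The other sums among these lists overlapped. Ribosome biogenesis gave 3 of 28, proteasome subunits 1 of 31 and cell cycle entry 1 of 12. The ribosome biogenesis count was 1 without KO 3 h replicate 1 or KO 12 h replicate 1 and 6 without KO 12 h replicate 3. The proteasome count was 0 without KO 3 h replicate 1 or 3 or KO 12 h replicate 1 or 2, and the cell cycle count 0 without any 1 KO 3 h library or KO 12 h replicate 2. Heatr1, which works in ribosomal RNA transcription, had 32.8, 32.9 and 28.6 CPM in KO 12 h livers, against 14.6, 21.4 and 19.0 CPM in KO 3 h livers (0.80). Of 13 genes of the mitochondrial genome 3 were higher and none lower (2 to 3 higher when single libraries were left out). Their median was 0.35, and 0.09 with library size alone. Among them ND5, a subunit gene of complex I, had a change of 0.55 that missed with library size alone (adjusted p = 0.082). A gene that missed the threshold is not shown to be the same at both times.

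WT livers were compared over the same times. The WT step called 1691 genes, 12.8% of those tested, 981 higher (7.43%) and 710 lower (5.38%). Of the genes higher in KO, 619 were higher in WT as well, 59.8% of the KO and 63.1% of the WT calls. Of the genes lower in KO, 209 were lower in WT as well, 31.3% of the KO and 29.4% of the WT calls. Called or not, the WT step had the same sign for 980 of the genes higher in KO (94.7%) and 558 of those lower (83.5%). WT calls in the opposite direction numbered 0 and 7. In WT, 19 of 23 immediate early genes and 10 of 12 ERK targets were higher, and 5 of 18 pericentral genes were lower. The 2 steps share no library. Counts called in only 1 genotype do not show a difference, which the difference of the steps tests. That test called 19 genes (0.144%), 4 with a higher (0.0303%) and 15 with a lower (0.114%) log2 step in KO, and 1349 genes had an unadjusted p under 0.05. The count was 3 without KO 12 h replicate 2, 6 without WT 12 h replicate 1, 6 without WT 12 h replicate 2, 8 without KO 3 h replicate 3, 9 without WT 3 h replicate 3, 9 without KO 3 h replicate 2, 30 without KO 12 h replicate 3 and 147 without WT 3 h replicate 1. It was 63 with DESeq2 and 129 without the low-count filter. Without WT 3 h replicates 2 and 3, which leaves only replicate 1 in that group, most of the 19 calls were lost.

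Fam13a, whose locus is tied to fat distribution in humans, had a call that every left-out library kept. It had 13.5, 5.90 and 9.78 CPM in KO 12 h livers and 24.6, 18.3 and 23.3 CPM in KO 3 h livers, against 18.3, 16.7 and 11.7 CPM in WT 12 h livers and 9.22, 9.75 and 6.31 CPM in WT 3 h livers. KO livers were lower at 12 h while WT livers were higher at 12 h, and the difference was -2.09 (SE 0.304, adjusted p = 0.0013). It held when any 1 of the 12 libraries was left out, and without WT 3 h replicates 2 and 3 together (-1.98, adjusted p = 0.00685).

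Nr1h4 was lower at 12 h in KO, while its WT step was -0.05 (adjusted p = 0.87). It had 44.0, 42.3 and 39.5 CPM in KO 12 h livers and 81.8, 97.2 and 92.6 CPM in KO 3 h livers, against 49.3, 62.5 and 52.9 CPM in WT 12 h livers and 54.5, 64.0 and 52.7 CPM in WT 3 h livers. The difference of -1.06 (adjusted p = 0.0188) was lost without WT 3 h replicate 3 (0.0636), KO 3 h replicate 2 (0.0714) or 3 (0.0687), WT 12 h replicate 2 (0.0854) or KO 12 h replicate 2 (0.0591). Cyp7a1 had 183, 245 and 109 CPM in WT 12 h livers and 103, 188 and 132 CPM in WT 3 h livers, with overlap. Its difference of -2.90 was large and did not pass (adjusted p = 0.0954), nor did that of Prox1 (-0.81, adjusted p = 0.0954).

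Hp, which encodes haptoglobin, and Crp, C-reactive protein, had KO steps that were not called beside lower levels at 12 h in WT. Hp had 533, 536 and 577 CPM in KO 12 h livers and 559.9, 479 and 471 CPM in KO 3 h livers, against 494, 515 and 489 CPM in WT 12 h livers and 662, 1489.6 and 1551 CPM in WT 3 h livers. WT 3 h replicates 2 and 3 were the highest. The difference of 1.43 (adjusted p = 0.0148) came to 0.51 (0.567) without those libraries, and that of Crp (1.08, 0.0133) to 0.55 (0.513). Both calls were lost without several single libraries.

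**Figure D5:**
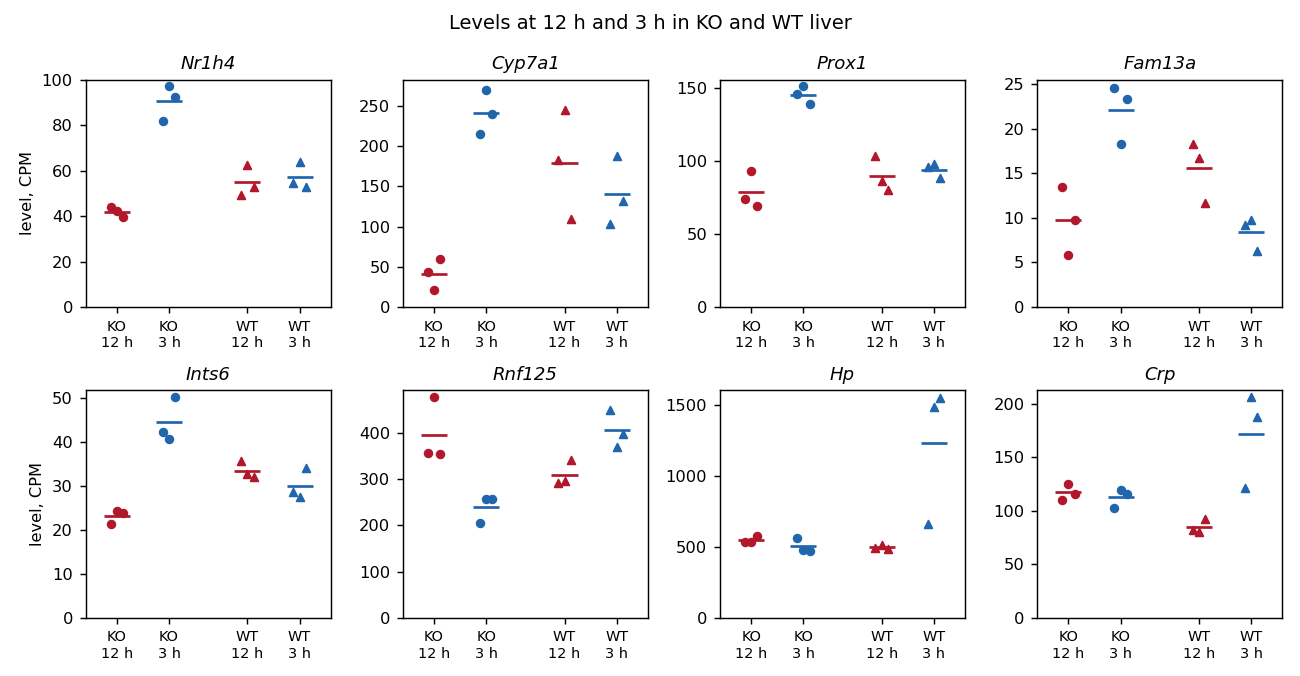
CPM of 8 genes in KO 12 h, KO 3 h, WT 12 h and WT 3 h livers from left to right, with 1 point per liver and bars at the means. Nr1h4, Prox1, Fam13a and Ints6 are lower at 12 h than at 3 h in KO without such a drop in WT, and Hp and Crp are high in 2 of the 3 WT 3 h livers.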

How the data were processed

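Per the labels, TRIzol RNA of individual livers was sequenced as polyA RNA. The authors deposited raw counts per gene for each library, made with STAR on mm39 per the submitters' processing notes. The STAR version and annotation were not given in the sources used here. STAR sets reads that match several places or genes apart. The unstranded count column was used, genes only (50657 symbols).

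The tests were run with edgeR 4.0.16 in R 4.3.3. The filterByExpr filter left 13204 genes. TMM scaling and a robust quasi-likelihood model with 1 mean per group were fitted to all 24 libraries. Contrasts were KO 12 h minus KO 3 h, the same in WT, and their difference, with two-sided tests and Benjamini-Hochberg adjustment at 0.05. Alternatives were RLE scaling, library size alone, other filters, no ribosomal RNA loci, DESeq2 1.42.0, only the compared groups, the replicate block, the gene-strand column and leaving out each library. The fit was tested on simulated data. The edgeR p-values set a difference of group means against the spread among the 3 mice of a group, estimated from all 8 groups together. That estimate includes the WT 3 h libraries that stood apart.

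The step and the 43 gene lists and 11 marker lists were chosen with earlier results of these data known. Genes were named by a rule: the 12 largest called changes each way with at least 5 CPM, no overlap and mostly own-strand reads, 6 each way for the step difference, and up to 4 called members per list by p. Of these the text favours genes whose calls held without each library. Fos, Egr1, Jun, Myc, Cebpb, Slc3a2, Psat1, Plk3, Jak2, Tef, Krt8, Actg1, Creb3l3, Cebpa and members given as not called were chosen after their values were seen. Promoters came from RefSeq on GRCm38.p6, a build other than that of the counts, matched by symbol. Of 35 called members of the immediate early, stress response, NRF2 and heat shock lists, 28 had a window. No set of genes was tested as a set. Some called genes are not reported here.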

Additional observations from a re-analysis of the deposited data

Results flagged for a closer look

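Each result here was raised because the KO step and the WT step differed in the test of the difference itself (edgeR quasi-likelihood, Benjamini-Hochberg adjusted over all tested genes). Values are the KO step minus the WT step in log2 units, and the losses given are single libraries without which the adjusted p was above 0.05. What lies behind any of these differences was not tested.

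Genes with a negative difference had a lower log2 step in KO than in WT. Fam13a (-2.09) kept its call without any of the 12 libraries, and Nr1h4 (-1.06) is described with its losses above. Hhex, a homeobox factor of the developing hepatobiliary tract, differed by -1.92 (adjusted p = 0.0294). It had 21.1, 16.2 and 16.8 CPM in KO 12 h livers and 31.2, 36.2 and 32.99 CPM in KO 3 h livers, against 27.8, 25.3 and 17.4 CPM in WT 12 h livers and 6.88, 13.2 and 14.7 CPM in WT 3 h livers. KO livers were lower at 12 h and WT livers higher, and the KO step (-0.89) was itself lost without KO 3 h replicate 2 (0.0582) or KO 12 h replicate 2 (0.0841) or 3 (0.0677). The call of the difference was lost without KO 3 h replicate 2 (0.0743), KO 3 h replicate 3 (0.0687), WT 12 h replicate 1 (0.0927), WT 12 h replicate 2 (0.0973), KO 12 h replicate 2 (0.0992) or KO 12 h replicate 3 (0.0535), and held without WT 3 h replicates 2 and 3 together (-2.67, adjusted p = 0.00237).

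Polg2, the accessory subunit of the mitochondrial DNA polymerase, differed by -2.12 (adjusted p = 0.0104). It had 2.64, 2.46 and 3.49 CPM in KO 12 h livers and 6.62, 6.32 and 4.05 CPM in KO 3 h livers, against 9.81, 10.6 and 12.7 CPM in WT 12 h livers and 7.02, 4.67 and 3.31 CPM in WT 3 h livers. The directions were opposite, and the KO step (-0.996) was itself lost without KO 3 h replicate 1 (0.119) or 2 (0.0725) or KO 12 h replicate 1 (0.0825) or 2 (0.107). The call of the difference was lost without KO 12 h replicate 2 (0.0591). Without WT 3 h replicates 2 and 3 together it was -1.67 (0.128). Clec2d, a C-type lectin, differed by -1.66 (adjusted p = 0.0188). It had 20.2, 13.0 and 9.43 CPM in KO 12 h livers and 21.2, 28.3 and 30.96 CPM in KO 3 h livers, against 21.5, 22.8 and 13.2 CPM in WT 12 h livers and 12.7, 9.14 and 11.5 CPM in WT 3 h livers. It was lost without WT 3 h replicate 3 (0.0546), KO 3 h replicate 2 (0.0563), KO 3 h replicate 3 (0.0687), WT 12 h replicate 1 (0.0741), WT 12 h replicate 2 (0.0854) or KO 12 h replicate 2 (0.0817). Without WT 3 h replicates 2 and 3 together it was -1.51 (0.2).

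Mcc differed by -1.28 (adjusted p = 0.0328), and was lost without WT 3 h replicate 2 (0.0806), WT 3 h replicate 3 (0.0764), KO 3 h replicate 2 (0.0838), KO 3 h replicate 3 (0.105), WT 12 h replicate 1 (0.0931), WT 12 h replicate 2 (0.138) or KO 12 h replicate 2 (0.0591). It had 34.6, 32.2 and 18.2 CPM in KO 12 h livers and 46.7, 53.8 and 55.1 CPM in KO 3 h livers, against 38.9, 42.5 and 26.7 CPM in WT 12 h livers and 30.3, 22.1 and 27.1 CPM in WT 3 h livers. Ints6, a subunit of the Integrator complex that acts at RNA polymerase II, differed by -1.09 (adjusted p = 0.0328). It had 21.4, 24.3 and 23.7 CPM in KO 12 h livers and 42.2, 40.7 and 50.3 CPM in KO 3 h livers, against 35.7, 32.8 and 31.9 CPM in WT 12 h livers and 28.5, 27.4 and 34.1 CPM in WT 3 h livers. KO livers were lower at 12 h without overlap, and the WT groups overlapped. It was lost without WT 3 h replicate 2 (0.0806), KO 3 h replicate 3 (0.135), WT 12 h replicate 1 (0.0931), WT 12 h replicate 2 (0.0826), KO 12 h replicate 1 (0.0674) or KO 12 h replicate 2 (0.073). Without WT 3 h replicates 2 and 3 together, Mcc was -1.12 (0.272) and Ints6 -1.19 (0.0957).

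Genes with a positive difference had a higher log2 step in KO than in WT. Rnf125, a ubiquitin ligase that limits RIG-I signalling, differed by 1.12 (adjusted p = 0.0104). It had 357, 479 and 354 CPM in KO 12 h livers and 204, 257 and 257 CPM in KO 3 h livers, against 291, 296 and 342 CPM in WT 12 h livers and 451, 370.0 and 398 CPM in WT 3 h livers. The KO step passed (0.73, adjusted p = 0.000552) and the WT step did not (-0.39, adjusted p = 0.067), though neither pair of groups overlapped. It was lost without WT 12 h replicate 1 (0.0614), WT 12 h replicate 2 (0.0628) or KO 12 h replicate 2 (0.0609), and without WT 3 h replicates 2 and 3 together it was 1.25 (0.0135). Ly75, an endocytic receptor of dendritic cells, differed by 2.39 (adjusted p = 0.0133) at levels that did not exceed 6.63 CPM. Of its stranded reads 69.2% lay on its own strand, and with the gene-strand column the call was lost (2.14, 0.187). It was lost without WT 3 h replicate 3 (0.0593), WT 12 h replicate 1 (0.0705) or KO 12 h replicate 2 (0.0591), and without WT 3 h replicates 2 and 3 together it was 1.86 (0.242). Hp (1.43, adjusted p = 0.0148) was lost without WT 3 h replicate 2 (0.0593), WT 3 h replicate 3 (0.0593), KO 3 h replicate 2 (0.0714), KO 3 h replicate 3 (0.0687), WT 12 h replicate 1 (0.0643), WT 12 h replicate 2 (0.0628) or KO 12 h replicate 2 (0.0591). Crp (1.08, adjusted p = 0.0133) was lost without WT 3 h replicate 2 (0.0638), WT 3 h replicate 3 (0.0571), WT 12 h replicate 1 (0.0643), WT 12 h replicate 2 (0.07) or KO 12 h replicate 2 (0.0591). With library size alone the calls of Nr1h4 (0.0584), Mcc (0.119) and Ints6 (0.0526) were lost, with the gene-strand column those of Hhex (0.0501), Mcc (0.0664) and Ints6 (0.0721), and with only the compared groups in the fit those of Hp (0.15), Clec2d (0.0785) and Mcc (0.105).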

How the results depend on the processing

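Of 134 named genes called in the KO step, 101 kept the call under every alternative run and 107 without any 1 library, and none of the 134 changed sign. The medians of 16 lists did change sign with library size alone, among them NRF2 targets, acute phase proteins and PPARA targets. The KO step count was 1695 with RLE scaling, 1743 without ribosomal RNA loci, 1762 with a 1 CPM filter, 1535 with DESeq2, 1464 with the gene-strand column and 1457 with only the compared groups in the fit. Library size alone gave 2783 KO calls (628 higher, 2155 lower) and 3085 WT calls (606 higher, 2479 lower), since it moves the middle of all genes. The filter left out gave 1964 KO calls (1043 lower). Without 1 library there were 1224 to 1458 KO calls (439 to 566 lower; the 439 without KO 3 h replicate 1) and 1155 to 1672 WT calls (429 to 723 lower). Without WT 3 h replicates 2 and 3 the WT step gave 704 (457 higher, 247 lower).

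The 19 step differences became 12 with library size alone (8 lower), 129 without the filter (48 higher, 81 lower), 63 with DESeq2 (26 higher, 37 lower) and 7 with the gene-strand column (4 lower). Without 1 library they were 3 to 147 (0 to 85 higher, 3 to 62 lower), and the cause was not tested. Most of the 19 were lost without WT 3 h replicates 2 and 3. For Egfr the edgeR contrast averaged over both times was -1.46 (adjusted p = 0.0798) and did not pass.

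Replicate numbers did not pair the mice. The correlation of same-numbered deviations, KO 12 h with KO 3 h, was -0.04, 0.07 and -0.03, and KO 12 h replicates 1, 2 and 3 correlated best with KO 3 h replicates 2, 2 and 1. With the replicate block the KO step gave 1749 calls, the WT step 1700 and the difference 22. Outside mitochondrial ribosomal RNA the 6 libraries held 1.75 to 3.83 M counts, so low genes were measured with few reads.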

Other observations

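A canalicular and a basolateral efflux pump moved in opposite directions in KO livers. Abcc2, which exports conjugates into bile, had 349.7, 282 and 467 CPM in KO 12 h livers, against 634, 449 and 500.4 CPM in KO 3 h livers (-0.53, edgeR adjusted p = 0.0324). Abcc4, which exports them into blood, had 8.50, 3.93 and 4.54 CPM in KO 12 h livers, against 2.80, 3.27 and 2.49 CPM in KO 3 h livers (0.99, adjusted p = 0.0313). Both were called, and both rested on single libraries. Abcc2 was lost without KO 3 h replicate 1 (0.194), KO 12 h replicate 1 (0.0978) or KO 12 h replicate 2 (0.175). Abcc4 was lost without KO 3 h replicate 1 (0.0876), KO 3 h replicate 3 (0.116) or KO 12 h replicate 1 (0.371).

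Ftl1, the light chain of ferritin, was slightly higher at 12 h. It had 655, 669 and 838 CPM in KO 12 h livers, against 607, 470.1 and 497 CPM in KO 3 h livers (0.46, adjusted p = 0.0124), and was lost without KO 3 h replicate 2 (0.097), KO 3 h replicate 3 (0.0712) or KO 12 h replicate 3 (0.124). It has many pseudogenes, so its level is uncertain. Hgf, the hepatocyte growth factor made by stellate cells, had 31.4, 31.2 and 32.5 CPM in KO 12 h livers, against 24.7, 21.4 and 20.9 CPM in KO 3 h livers, with all 12 h livers higher (0.50, adjusted p = 0.0376), and was lost without KO 3 h replicate 2 (0.115), KO 3 h replicate 3 (0.141), KO 12 h replicate 1 (0.096), KO 12 h replicate 2 (0.0859) or KO 12 h replicate 3 (0.102).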
